A study of Mus musculus with 20 samples.

Results

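The genes described here belong to the unfolded protein response and the heat shock response, as 10 symbols: Hspa5, Hsp90b1, Calr, Pdia4, Xbp1, Atf4, Ddit3, Hspa8, Hsp90aa1 and Hspa1a. Rows were taken from the deposited table of 59311 genes by gene symbol, which found 9 of the 10. Neither Hspa1a nor its near copy Hspa1b has a row under its symbol, and 2 rows without a symbol that lie over their locus are described separately. RNA sequencing was performed on Ly6C hi and Ly6C lo monocyte-derived macrophages (MoMac) sorted from the fibrotic liver of 10 male C57BL/6 mice (C57BL/6J in the study's methods) aged 10 to 12 weeks. All mice received the hepatotoxin carbon tetrachloride (CCl4) for 4 weeks and were examined 2 days after its last injection. Mice 11 to 15 were exposed to vehicle (DMSO in PBS). Mice 16 to 20 were exposed to Ac-6-FP (acetyl-6-formylpterin), a ligand of the antigen-presenting molecule MR1 that keeps mucosal-associated invariant T cells inactive. Both subsets were sorted from each liver as F4/80+CD11b+ cells, with Ly6G+, CD11c+ and CD3+ cells left out, which gave 20 libraries from 1 animal each and 5 libraries in each of the 4 groups. No mouse without CCl4 was compared here, so the values hold no unstressed liver.

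Secreted and membrane proteins fold in the endoplasmic reticulum, where chaperones such as BiP hold unfolded chains. When unfolded chains accumulate, the sensors IRE1, PERK and ATF6 slow translation and raise the transcription of chaperone genes, partly through the factors XBP1, ATF4 and CHOP. In the cytosol, heat shock factor 1 (HSF1) raises HSP70 and HSP90 chaperones when proteins misfold after heat, oxidative stress or cell handling. Monocytes and macrophages secrete cytokines and matrix enzymes and carry a developed endoplasmic reticulum.

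The promoter of a chaperone gene of the endoplasmic reticulum often carries the ER stress element, the motifs CCAAT and CCACG set 9 bases apart. RefSeq promoter windows (GRCm38.p6, 250 bases before to 50 after the start) were at hand for 8 of the 10 genes: Hspa5, Hsp90b1, Calr, Pdia4, Xbp1, Atf4, Ddit3 and Hspa1a. On either strand, the exact element was present in 3 of these 8 windows, against 0.13% of 27025 promoter windows. The matches are shown because they mark 3 chaperone genes whose levels are followed below. The stretches read 5′ to 3′ along each gene, with CCAAT and CCACG, or their complements, in capitals. They are from chr2:34772015-34772053 (+ strand), chr10:86705523-86705666 (− strand) and chr8:84847065-84847103 (− strand).
Hspa5: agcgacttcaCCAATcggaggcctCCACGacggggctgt
Hsp90b1: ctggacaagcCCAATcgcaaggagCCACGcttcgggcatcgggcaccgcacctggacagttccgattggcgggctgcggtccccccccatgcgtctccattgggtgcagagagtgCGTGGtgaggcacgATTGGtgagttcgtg
Calr: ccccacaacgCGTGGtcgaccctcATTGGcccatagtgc
The match in Hspa5 lies 65 to 47 bases before the start. Hsp90b1 holds one match 212 to 194 bases before its start and another, on the opposite strand, 107 to 89 bases before it. The match in Calr, 162 to 144 bases before its start, is also on the opposite strand, where the motifs read CGTGG and ATTGG. The motif CCACG alone, which is part of the element, was found in 5 of the 8 windows (in Pdia4 and Atf4 as well), against 32.7% of all windows. None of the 8 windows held the XBP1 core ACGTGG (8.32% of all windows), whose last 5 bases are the same motif on the opposite strand. None held the heat shock element (GAA, TTC and GAA or their complement, each 2 bases apart, 0.529% of all windows), or TGATGNAAT, the C/EBP-ATF element (0.969%). A match is a description of these letters only, and its absence says nothing about the factor.

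Values are normalized counts, which are gene counts divided by a DESeq2 size factor per library and not by gene length, so levels are compared between libraries and not between genes. Library depth was 5693049 to 18682437 reads on genes. Mouse 13 had a vehicle Ly6C lo library that stood apart, with the fewest reads and 5343 genes detected against 9017 to 15766 in the other 19, so results that rest on it are given with and without mouse 13. More genes were detected with Ac-6-FP (median 13622 in Ly6C hi and 14084 in Ly6C lo) than with vehicle (median 9749 and 10379). Differences between groups are on the scale of log2(normalized count + 1), and a gene was called when its Benjamini-Hochberg adjusted p-value over the 17248 genes tested was below 0.05. All 9 genes with a row passed the filter on low values, a group mean of at least 10. The labels matched the sort in that 6 of 6 markers of Ly6C hi monocytes were higher in Ly6C hi MoMac, with Ly6c2 at 4930.2 to 10012 there and at 284 to 1014 in Ly6C lo. Of 6 markers of Ly6C lo cells 2, Ace and Treml4, were called as higher in Ly6C lo, and the summed counts of the list overlapped (4296 to 22590.0 in Ly6C hi and 6820 to 49958 in Ly6C lo). One of the 6, Nr4a1, was higher in Ly6C hi in 6 of 10 mice. Summed counts of 4 general myeloid markers were 17632 to 36403 in Ly6C hi and 18699.9 to 57944 in Ly6C lo. Ly6C lo libraries also held transcripts of other cells, given beside the comparison of the subsets.

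Across all 20 libraries, levels were steadiest for the chaperone genes Hspa8, Hsp90b1 and Hspa5 and most scattered for the stress factors. The coefficient of variation was 16.4% for Hspa8, 22.3% for Hsp90b1, 22.4% for Hspa5, 34.4% for Calr, 40.4% for Hsp90aa1, 43.7% for Pdia4, 59.2% for Xbp1, 64.4% for Atf4 and 94.8% for Ddit3. The median over tested genes with a mean of at least 10000 was 27.9%, with a mean from 1000 to 10000 it was 35.1%, from 100 to 1000 it was 68.1% and from 10 to 100 it was 151%. Over all tested genes, too, the spread was wider at lower counts. Ddit3 rested on 0 to 116 reads per library, so its values carry a wide counting error.

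**Figure D1:**
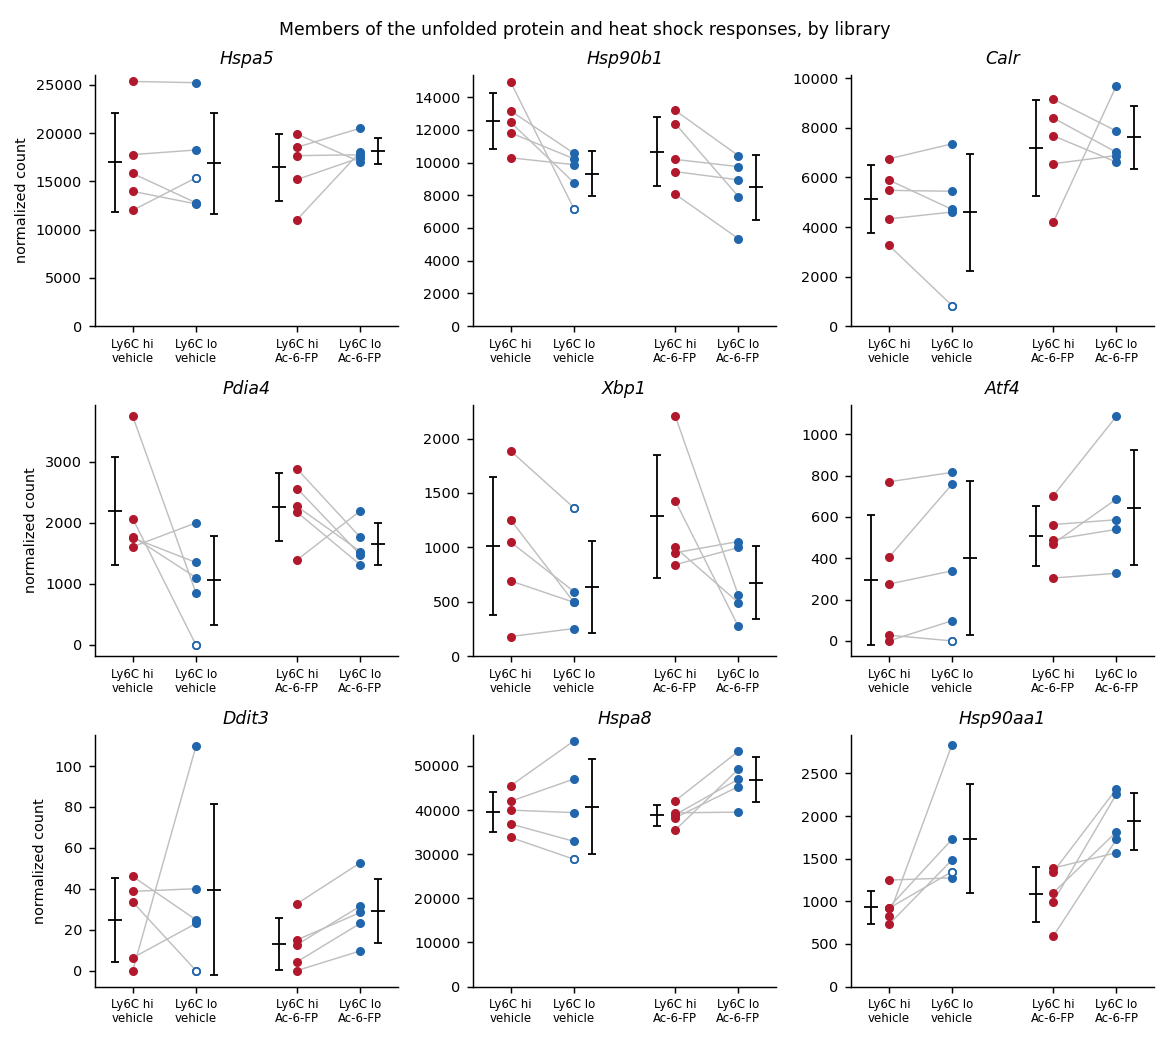
Normalized counts (y axis, linear, from 0) of the 9 genes with a row, in the 4 groups (x axis), with each mouse's Ly6C hi (red) and Ly6C lo (blue) libraries joined by a line, the Ly6C lo library of mouse 13 open, and a black mark and bar for mean ± SD of 5 mice. In 10 of 10 mice Hsp90b1 was higher in Ly6C hi, and Hsp90aa1 in Ly6C lo.

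The first question was whether the subsets of the same liver differed. Over 10 mice, 2 of the 9 genes were called, 1 in each direction: Hsp90b1 was higher in Ly6C hi MoMac and Hsp90aa1 was higher in Ly6C lo MoMac. Of all tested genes, 5.19% were called, with 1.76% above in Ly6C hi and 3.44% above in Ly6C lo. The median difference, Ly6C hi minus Ly6C lo, was -0.08 over the 9 genes and -0.03 over all genes tested.

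Hsp90b1 codes for GRP94, the HSP90 chaperone of the endoplasmic reticulum, which folds Toll-like receptors and integrins. In Ly6C hi MoMac its normalized count was 13149, 11811, 14899, 12453 and 10287 in the vehicle mice 11 to 15, and 9443, 13183, 8068, 10189 and 12384 in the Ac-6-FP mice 16 to 20. In Ly6C lo MoMac of the same mice it was 10561, 10229, 7159, 8769 and 9869, and 8941, 10418, 5345, 9748 and 7923. Every mouse had the higher value in Ly6C hi, by 1.04 to 2.08 times, although the ranges of the subsets overlapped. Over 10 mice the mean was 11587 ± 2055 (SD) against 8896 ± 1671, a log2 difference of 0.39 ± 0.10 (SE), or 1.31-fold (limma adjusted p = 0.0398). A two-sided exact permutation test over sign flips of the 10 mice gave p = 0.00195, the smallest it can give. The limma call was close to its threshold: the adjusted p was between 0.0574 and 0.101 without mouse 11, 12, 14, 17, 18 or 20, and 0.0339 without mouse 13. The difference stayed between 0.31 and 0.42 when any mouse was left out.

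Hsp90aa1 codes for the inducible cytosolic HSP90 alpha, a client-binding chaperone of kinases and receptors. Its normalized count in Ly6C hi MoMac was 728, 1249, 918, 830.4 and 927 with vehicle and 1344, 995, 591, 1099 and 1389.7 with Ac-6-FP. The Ly6C lo values were 1485, 1275, 1348, 2839.7 and 1728 with vehicle and 2319.7, 2259, 1727, 1815 and 1571 with Ac-6-FP. The value was higher in Ly6C lo in 10 of 10 mice, by 1.02 times in mouse 12 and up to 3.42 times in mouse 14. Only the Ly6C lo value of mouse 12 and that of mouse 13 fell within the range of Ly6C hi. The means were 1007 ± 263 and 1837 ± 493 (SD, n = 10 mice), a log2 difference of -0.87 ± 0.20 (SE), or 1.83-fold higher in Ly6C lo (limma adjusted p = 0.0235, exact permutation p = 0.00195). The adjusted p was between 0.0525 and 0.0639 without mouse 11, 15, 16, 17 or 18, and 0.0145 without mouse 13. A value of the same sign in 10 of 10 mice, as seen for these 2 genes, was found in 3.85% of all genes tested. Reads of Hsp90aa1, Hsp90ab1 and Hspa8 may be shared with near-identical processed copies, which the counting could split.

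With edgeR on whole reads recovered from the values, without mouse 15, 0 of the 9 genes were called and 3 had an unadjusted p below 0.05, beside 2.74% and 11.1% of all genes. The adjusted p was 0.0571 for Hsp90b1 and 0.136 for Hsp90aa1, in the same directions. Without pairing the libraries by mouse, the block that sets both subsets of a liver side by side, 1 of the 9 was called: Hsp90aa1, while Hsp90b1 had an adjusted p of 0.0906. With no filter on low values, the adjusted p of Hsp90b1 was 0.0685 and that of Hsp90aa1 0.0298.

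The other chaperone genes of the endoplasmic reticulum were not called. Hspa5 codes for BiP, its HSP70 chaperone and a repressor of the 3 stress sensors. Its normalized count was 25349, 13964, 12002, 15817 and 17771 in vehicle Ly6C hi MoMac and 25219, 12662, 15367, 12780.3 and 18248 in vehicle Ly6C lo MoMac. With Ac-6-FP it was 11044, 19895, 18537, 15196 and 17666 in Ly6C hi and 18074, 17003, 20505, 17459 and 17750.3 in Ly6C lo. Mouse 11 had the highest value in both subsets, and the groups overlapped. The difference between subsets was -0.08 (95% confidence interval -0.27 to 0.11, adjusted p = 0.654).

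Calr codes for calreticulin, the calcium-binding lectin chaperone of glycoproteins. Its normalized count in Ly6C hi was 6752, 5897, 3262, 4327 and 5479 with vehicle and 7683, 8403, 4185, 6554 and 9159 with Ac-6-FP. Ly6C lo values were 7356, 4709, 831, 4605 and 5443 with vehicle and 6618, 7013, 9709, 6886 and 7871 with Ac-6-FP. The lowest value, 831, was in the library of mouse 13 that stood apart. The subset difference was 0.15 (interval -0.32 to 0.63), and -0.05 without mouse 13 (-0.36 to 0.26), with adjusted p of 0.737 and 0.868.

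Pdia4 codes for ERp72, a disulfide isomerase. In Ly6C hi its normalized count was 1606, 1752, 2068, 3744 and 1773 with vehicle and 1393, 2879, 2267, 2560.1 and 2172 with Ac-6-FP. In Ly6C lo MoMac it was 1998, 1349, 0, 853 and 1102 with vehicle and 2194, 1759.9, 1528, 1475 and 1311 with Ac-6-FP. The value was higher in Ly6C hi in 8 of 10 mice, and mice 11 and 16 had the opposite order. The difference of 1.60 ± 0.92 (SE) rested on the 0 of mouse 13, and was 0.56 ± 0.24 without that mouse (adjusted p = 0.415 and 0.222). Adjusted for how many genes each library detected, it was 2.23 and was called (adjusted p = 0.00984). That fit kept mouse 13, with 9749 genes detected in Ly6C hi and 5343 in Ly6C lo, and was not run without it.

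Of the transcription factors, Xbp1 codes for the factor that IRE1 activates by splicing its mRNA, a form these gene counts do not tell from the unspliced one. Its normalized count in Ly6C hi was 692, 182, 1885, 1252 and 1048 with vehicle and 2209, 951, 841, 1429 and 1000 with Ac-6-FP. The Ly6C lo libraries had 496, 255, 1363, 495 and 595 with vehicle and 559, 1054, 999, 274 and 494 with Ac-6-FP. The value was higher in Ly6C hi in 7 of 10 mice, and mouse 12 was the lowest in each subset among vehicle mice. The difference was 0.76 ± 0.31 (interval 0.09 to 1.43), with an unadjusted p of 0.0294 and an adjusted p of 0.227.

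Atf4 codes for the factor translated when PERK or another kinase phosphorylates eIF2 alpha, so that its mRNA level is only part of its control. Its normalized count in Ly6C hi was 770.0, 405, 28.2, 0 and 275 with vehicle and 563, 305, 702, 471 and 490.3 with Ac-6-FP. In Ly6C lo it was 816, 758, 0, 97.8 and 339 with vehicle and 587, 328, 1088, 687 and 539.9 with Ac-6-FP. Mice 13 and 14 were low in both subsets, and the value was higher in Ly6C lo in 9 of 10 mice, all but mouse 13. The mean difference was -0.45 ± 0.79, -1.04 ± 0.62 without mouse 13 and 0.23 without mouse 14, and was called in none of these fits, which depend on the count of 1 added where a value is 0 (adjusted p = 0.781, 0.404 and 0.847).

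Ddit3 codes for CHOP, which ATF4 induces and which promotes cell death under lasting stress. Its normalized count was 0 to 46.0 in Ly6C hi (median 13.8) and 0 to 109.6 in Ly6C lo (median 26.6). It was higher in Ly6C lo in 8 of 10 mice. At this depth no difference was detectable (-1.10, interval -3.18 to 0.98, adjusted p = 0.591). A library at 0 could still hold up to 3 reads.

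Hspa8 codes for HSC70, the constitutive cytosolic HSP70. Its normalized count in Ly6C hi was 45527, 36839, 33780.4, 39976 and 42005 with vehicle and 35456, 38255, 38928, 42096 and 39362 with Ac-6-FP. In Ly6C lo it was 55681, 32903, 28851, 39421 and 47039.6 with vehicle and 49261, 45324, 47009, 53328 and 39535 with Ac-6-FP. With Ac-6-FP the value was higher in Ly6C lo in 5 of 5 mice, against 2 of 5 with vehicle. The difference over 10 mice was -0.14 (interval -0.28 to 0.00, adjusted p = 0.313), and it was 0.11, of the opposite sign, after quantile normalization.

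**Figure D2:**
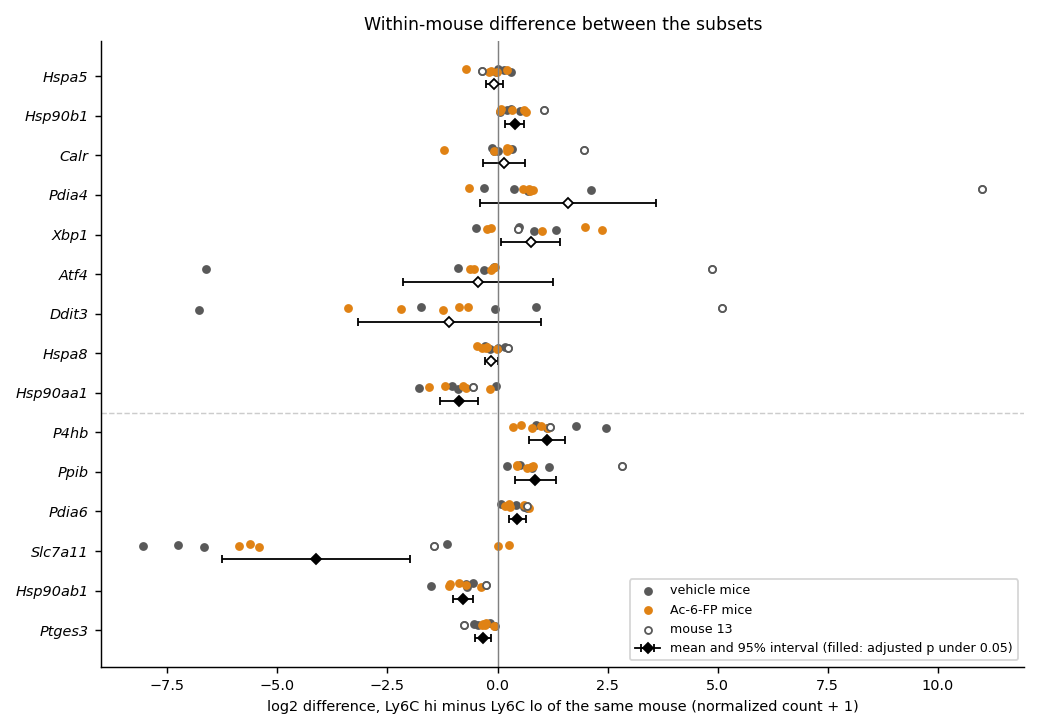
Log2 difference in normalized count + 1, Ly6C hi minus Ly6C lo of the same mouse (x axis), for the 9 genes and, under the dashed line, 6 further called genes; grey points are vehicle mice, orange points Ac-6-FP mice, the open point mouse 13, and diamonds the mean of 10 mice with its 95% interval. Hsp90b1, P4hb, Ppib and Pdia6 lie above 0 in every mouse, and Hsp90aa1, Hsp90ab1 and Ptges3 below 0.

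The neighbours of these genes in the same pathways were taken from lists, and every tested gene of a list is counted. Among 16 folding genes of the endoplasmic reticulum, 3 were called, all as higher in Ly6C hi, and 13 were not. The median difference of the list was 0.52, against -0.03 over all genes tested. P4hb, the disulfide isomerase PDI, ranged from 3186 to 7946 in Ly6C hi and from 928 to 4222 in Ly6C lo, a difference of 1.12 ± 0.18 (adjusted p = 0.00231). Pdia6, another disulfide isomerase, differed by 0.45 ± 0.09 (adjusted p = 0.00865). Ppib, the prolyl isomerase cyclophilin B, differed by 0.86 ± 0.21 (adjusted p = 0.036). These 3 were higher in Ly6C hi in 10 of 10 mice. The calls of P4hb and Pdia6 held when any mouse was left out, while that of Ppib was lost without mouse 11, 14, 15, 16, 17, 18, 19 or 20 (adjusted p at most 0.0781) and with no filter on low values (0.0597). edgeR called 2 of the 16.

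Among 25 cytosolic heat shock genes, 22 were tested, 2 were called as higher in Ly6C lo and none as higher in Ly6C hi, with a median difference of -0.34. Without mouse 13, 4 were called as higher in Ly6C lo, namely Hsp90ab1, Ptges3, the HSP40 gene Dnajb1 (-0.84) and the chaperone adaptor Stip1 (-0.72). The median of the list was then -0.64, and that of all genes -0.18, of which 6.69% were called. The immediate early genes, which cell handling induces, were not called between the subsets over 10 mice (median difference -0.34, 3 of 6 at an unadjusted p below 0.05). Without mouse 13, 2 of the 6, Dusp1 and Egr1, were called as higher in Ly6C lo and the median was -0.59. Their part in the differences of heat shock genes was not tested. Hsp90ab1, the constitutive HSP90 beta, ranged from 9013 to 14171 in Ly6C hi and from 14793 to 25645 in Ly6C lo, so that the subsets did not overlap. Its difference was -0.78 ± 0.11 (adjusted p = 0.00054), and the call held when any mouse was left out. Ptges3, the HSP90 co-chaperone p23, differed by -0.33 ± 0.08 (adjusted p = 0.0329). Its call was lost without mouse 12, 14, 16, 17, 18 or 19 (adjusted p at most 0.0775) and after quantile normalization (0.0635), with no filter on low values (0.0537) and without pairing by mouse (0.408). The factor Hsf1 itself ranged from 0 to 577 in Ly6C hi and from 0 to 575 in Ly6C lo (-0.88, adjusted p = 0.619). Mouse 12, at 0 in Ly6C hi and 575 in Ly6C lo, set that value, which was 0.04 without it (adjusted p = 0.969). edgeR called 1 of the 22.

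**Figure D3:**
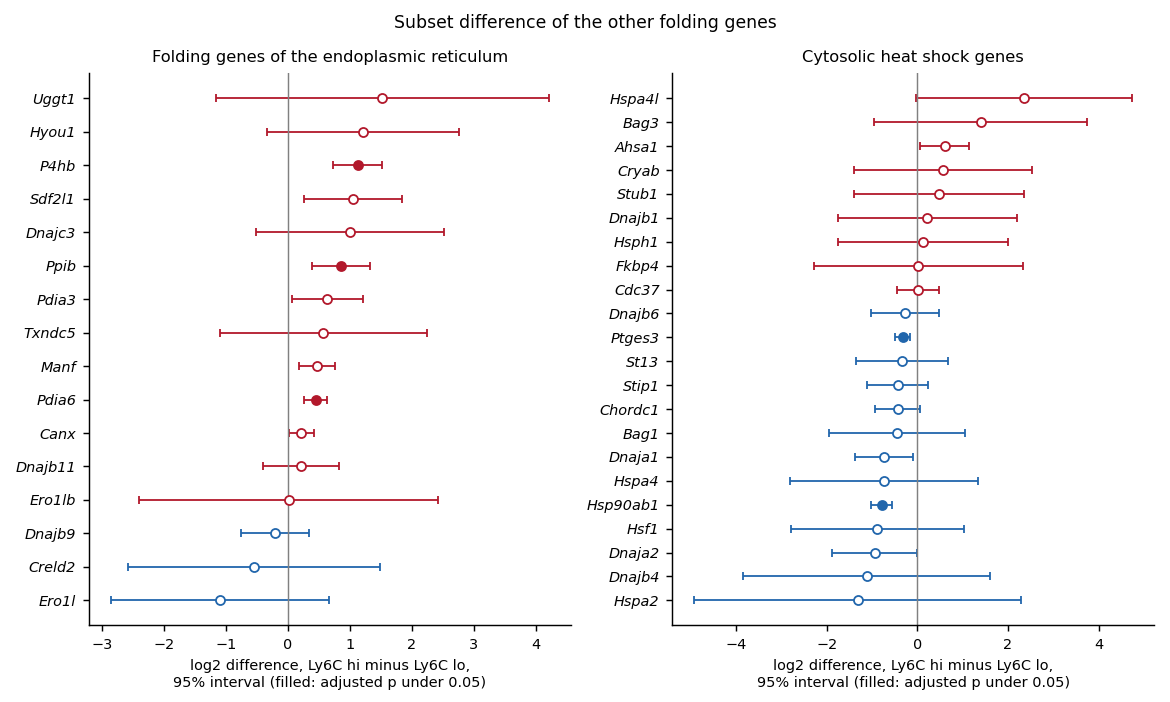
Log2 difference in normalized count + 1, Ly6C hi minus Ly6C lo (x axis), with 95% interval over 10 mice, for the tested genes of both lists (y axis); filled points have an adjusted p below 0.05. The called genes P4hb, Ppib and Pdia6 (left) lie above 0 and Hsp90ab1 and Ptges3 (right) below it, and most other intervals cross 0.

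Of 13 targets of ATF4 and CHOP, 11 were tested and 1 was called: Slc7a11, the cystine transporter, at 0 to 139 in Ly6C hi and 0 to 362 in Ly6C lo (adjusted p = 0.029). Its fitted difference of -4.12 depends on the added count of 1, and its call was lost without mouse 12, 14, 15, 16, 19 or 20 (adjusted p at most 0.0771), with an added count of 0.1 (0.0515) and with edgeR (0.236). None of 7 tested signalling genes, 11 genes of ER-associated degradation and 6 mitochondrial chaperone genes were called by limma or edgeR. At an unadjusted limma p below 0.05 there were 0, 1 and 0 of these. The same count was 7 of 16 folding genes, 6 of 11 targets of ATF4 and CHOP and 5 of 22 cytosolic heat shock genes, beside 16.7% of all tested genes. Of the sensor genes, Ern1 (IRE1) was at 0 in 13 of 20 libraries and at most 48.4. Eif2ak3 (PERK) was at 0 in 9 libraries, with a median of 3.5 and a highest value of 494. Atf6 was at 0 in 5 libraries, with a median of 99.2 and a highest value of 363.

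Within vehicle mice alone none of the 9 genes was called (0.458% of all genes), and within Ac-6-FP mice alone none was called (3.16% of all genes). At an unadjusted limma p below 0.05 there were 2 and 3 of the 9, beside 7.64% and 17.2% of all genes, and edgeR called 0 in both. Both groups have 5 mice. Hsp90b1 differed by 0.43 (interval 0.01 to 0.85) in vehicle mice and by 0.34 (0.05 to 0.64) in Ac-6-FP mice. Hsp90aa1 differed by -0.86 (-1.56 to -0.15) and by -0.88 (-1.42 to -0.35). In Ac-6-FP mice, 5 list genes were called. Ppp1r15a (GADD34, which reverses the phosphorylation of eIF2 alpha) was lower in Ly6C hi, at 1971 to 2709 against 4393 to 7797 in Ly6C lo (-1.26 ± 0.12, adjusted p = 0.0127). The HSP40 gene Dnaja1 (-1.16, adjusted p = 0.0382) and the HSP90 partner Chordc1 (-0.79, adjusted p = 0.0431) were lower in Ly6C hi as well, as was Hsp90ab1, and Ppib was higher. Between the treatments, the difference of these subset differences was not called for any gene.

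Markers of some other cells differed between the subsets, and their values stand beside the differences above. Of 6 T and NK cell markers 5 have a row, and their summed normalized count was 0 to 457 in Ly6C hi and 22011 to 48979 in Ly6C lo. Nkg7, Klrb1c and the NK receptor Ncr1 were higher in Ly6C lo in 10 of 10 mice, while Cd3e was at 0 in 18 of 20 libraries. The sum over 6 neutrophil markers was 3045 to 6851 in Ly6C hi and 9999 to 129704 in Ly6C lo, although cells with Ly6G were sorted out. Retnlg alone was 0 to 504 and 9064 to 117062, and was higher in Ly6C lo in 10 of 10 mice. The other members were higher in Ly6C lo in fewer mice: Ngp in 8, Camp and S100a9 in 7, and S100a8 and Ly6g in 5. The sum over 6 dendritic cell markers was 83.8 to 535 and 4702 to 19404, of which Cd209a alone was 0 to 535 and 4369 to 19143. Of the other 5, Flt3 was also higher in Ly6C lo in 10 of 10 mice, and Xcr1, Zbtb46, Siglech and Clec9a were not. For 5 plasma cell markers, whose cells have a large endoplasmic reticulum, the sums were 0 to 225 and 13.8 to 4313, and Tnfrsf17 and Derl3 were at 0 in all 20 libraries. The sums for B cells were 80.2 to 743 and 0 to 1131, for Kupffer cells 0 to 246 and 0 to 808, and for hepatocytes 535 to 2214 and 1571 to 4037. For endothelial cells they were 0 to 382 and 0 to 265, and for stellate cells 0 to 212 and 0 to 139. Their part in the subset differences was not tested. In these bulk libraries fewer cells of a type and less RNA per cell cannot be told apart.

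The second question was whether Ac-6-FP changed these genes within a subset. None of the 9 genes was called in Ly6C hi MoMac (0.0754% of all genes) and none in Ly6C lo MoMac (0.0522%). At an unadjusted limma p below 0.05 there were 0 in each subset, and edgeR also called 0. The vehicle libraries had fewer genes detected, and the median difference of all tested genes, Ac-6-FP minus vehicle, was 0.35 in Ly6C hi and 0.91 in Ly6C lo. The median over the 9 genes was 0.08 and 0.24. Without mouse 13 the median in Ly6C lo was 0.13 over the 9 genes and 0.34 over all genes.

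Hspa5, Hspa8, Hsp90b1 and Hsp90aa1 had the narrowest intervals over both subsets. For Hspa5 the difference was -0.03 (interval -0.54 to 0.49) in Ly6C hi and 0.15 (-0.26 to 0.57) in Ly6C lo. For Hspa8 it was -0.02 (-0.23 to 0.18) and 0.24 (-0.16 to 0.63). For Hsp90b1 it was -0.25 (-0.59 to 0.10) and -0.16 (-0.59 to 0.27). For Hsp90aa1 it was 0.18 (-0.38 to 0.74) and 0.21 (-0.33 to 0.75).

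The smallest exact p of the 9 genes was that of Calr in Ly6C lo, and these exact p-values are not adjusted for the number of genes. Its mean was 5144 ± 1367 with vehicle and 7197 ± 1938 with Ac-6-FP in Ly6C hi, and 4589 ± 2373 against 7619 ± 1259 in Ly6C lo (SD, n = 5 mice; exact permutation p = 0.135 and 0.0317). In Ly6C lo the 5 Ac-6-FP mice were above 4 of the 5 vehicle mice, and vehicle mouse 11, at 7356, lay among them. The log2 difference in Ly6C lo was 1.02 (-0.16 to 2.20, limma adjusted p = 0.564), and 0.47 (0.08 to 0.87, adjusted p = 0.642) without mouse 13.

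For the genes with a library at 0 the interval was wide. Pdia4 in Ly6C lo differed by 2.43 (-1.88 to 6.74), and by 0.37 (-0.23 to 0.96) without mouse 13. Atf4 differed by 2.69 (-1.09 to 6.46) in Ly6C hi and 2.37 (-1.43 to 6.18) in Ly6C lo. Without mouse 14, whose Ly6C hi value was 0, it was 1.13 in Ly6C hi, and without mouse 13 it was 0.66 (-0.82 to 2.14) in Ly6C lo. With Ac-6-FP all 10 Atf4 values were between 305 and 1088, while with vehicle they ran from 0 to 816. Xbp1 and Ddit3 had intervals that crossed 0 in both subsets.

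In the lists of neighbouring genes none was called for Ac-6-FP in either subset, by limma or edgeR. At an unadjusted limma p below 0.05 there were 2 of 16 folding genes of the endoplasmic reticulum in each subset, and 4 of 22 cytosolic heat shock genes in Ly6C hi and 8 of 22 in Ly6C lo. In Ly6C hi and Ly6C lo there were 2 and 3 of 11 targets of ATF4 and CHOP, and 1 and 1 of 11 degradation genes. There were 1 and 0 of 7 signalling genes, and 0 and 1 of 6 mitochondrial genes. Over all tested genes that limma share was 8.73% in Ly6C hi and 9.31% in Ly6C lo. With edgeR the cytosolic count was 4 of 22 in each subset, beside 7.5% and 7.96% of all genes. The median difference of the folding list was 0.37 in Ly6C hi and 0.42 in Ly6C lo, and that of the cytosolic list 0.48 and 0.92, beside 0.35 and 0.91 over all genes. For the ER-associated degradation list it was 0.24 and 0.60, and for the targets of ATF4 and CHOP 0.72 and 1.41. The 7 signalling genes had a median of 2.13 in Ly6C hi, with 6 above 0, and of 1.34 in Ly6C lo, with 5 above 0. In vehicle Ly6C hi, Ern1 was at 0 in 5 of 5 libraries, Mbtps2 in 4 and Atf6 in 3, against 2, 1 and 0 with Ac-6-FP. Eif2ak3 was at 0 in 2 of 5 with either treatment. Differences of such genes depend on the added count of 1. Without mouse 13 the signalling list had medians of 1.93 and 1.00, beside 0.28 and 0.34 over all genes. Vehicle mice 12 and 14, whose Ly6C hi libraries had 9017 and 9495 genes detected, stayed in those fits. Without that mouse the other medians in Ly6C lo were 0.37 for folding genes, 0.48 for cytosolic genes, 0.54 for degradation genes and 0.63 for the targets.

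The third question was whether the Ac-6-FP change differed between subsets, and none of the 9 genes was called (0% of all genes). Hspa8 was the 1 gene with an unadjusted limma p below 0.05, with a difference of -0.26 (interval -0.50 to -0.01, adjusted p = 0.83, exact permutation p = 0.0714), and -0.20 (-0.44 to 0.04) without mouse 13. edgeR called none, and over all genes it called 0 as limma did, with 375 and 840 genes at an unadjusted p below 0.05.

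**Figure D4:**
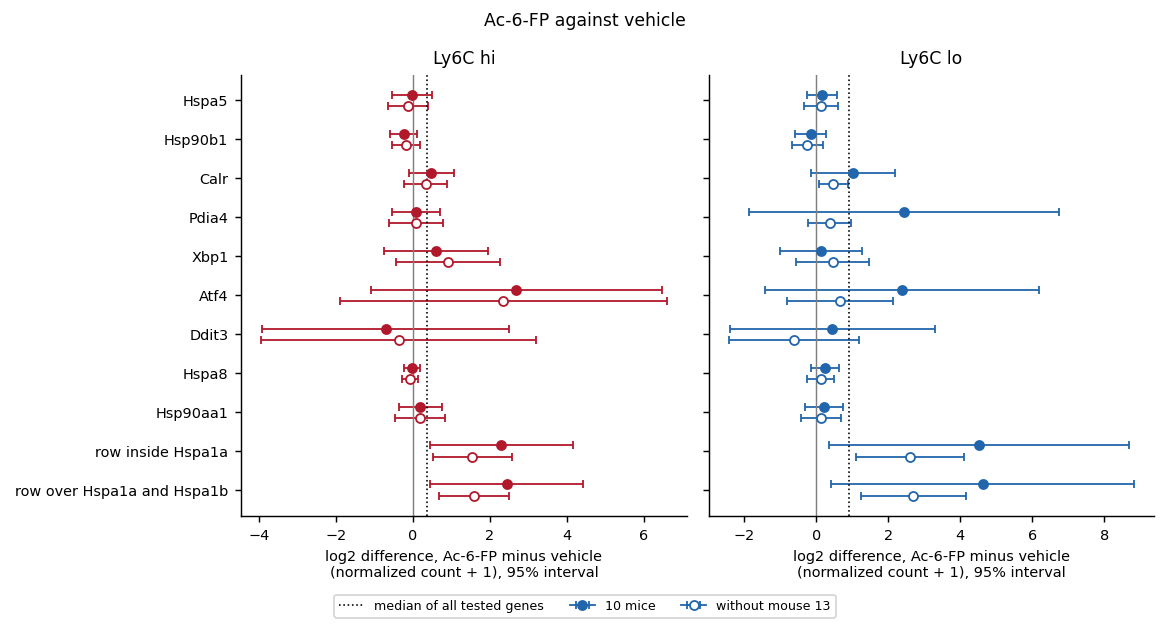
Log2 difference in normalized count + 1, Ac-6-FP minus vehicle (x axis), with 95% interval, in Ly6C hi (left, red) and Ly6C lo (right, blue), for the 9 genes and the 2 rows at the Hspa1a locus (y axis); filled points use 10 mice, open points leave out mouse 13, and the dotted line is the median of all tested genes. All intervals of the 9 genes over 10 mice include 0, and those of the 2 locus rows lie above it.

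Hspa1a codes for the inducible HSP70 and lies on chr17:34969190-34972156, − strand, next to its near-identical copy Hspa1b on chr17:34956436-34959238 (GRCm38, GENCODE M21). Of the rows without a symbol, GSMG0016569 (chr17:34969784-34971386, mm10) lies inside Hspa1a and GSMG0017445 (chr17:34956432-34972340) spans Hspa1a and Hspa1b. The rows may share reads, and the copies cannot be told apart in them, so they stand for the locus and not for the gene. They were matched by position, after the symbol was found to have no row.

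At the row over both genes, the normalized count in Ly6C hi was 1397, 633, 47.6, 705 and 1178 with vehicle and 3664, 1248, 2719.7, 3881 and 3423 with Ac-6-FP. In Ly6C lo it was 1987, 307, 0, 411 and 1739 with vehicle and 5287, 3753, 3101, 9903 and 6485 with Ac-6-FP. In Ly6C lo every Ac-6-FP value lay above every vehicle value, and in Ly6C hi only Ac-6-FP mouse 17 lay within the vehicle range. Of all tested genes, 1.5% had groups that did not overlap in Ly6C lo and 1.35% in Ly6C hi, in either direction. The ratio of means was 3.77 in Ly6C hi and 6.42 in Ly6C lo (exact permutation p = 0.0159 and 0.00794, the latter the smallest that 5 against 5 mice allow).

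The limma difference was 2.43 (0.45 to 4.42) and 4.62 (0.41 to 8.83), with adjusted p of 0.543 and 0.528, so the row was not called in either subset. Without mouse 13 it was 1.58 (0.67 to 2.50) and 2.69 (1.23 to 4.15), with adjusted p of 0.568 and 0.62. The row inside Hspa1a gave 2.30 and 4.52. Among Ac-6-FP mice the row over both genes was higher in Ly6C lo in 5 of 5 mice and among vehicle mice in 2 of 5. The test of that difference between treatments gave -2.19 (interval -4.41 to 0.04, limma adjusted p = 0.83, exact permutation p = 0.0397), and -1.10 (-2.05 to -0.15, adjusted p = 0.832) without mouse 13. For the row inside Hspa1a it gave -2.22 (adjusted p = 0.83, exact permutation p = 0.0556). edgeR called neither row.

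The vehicle libraries with the lowest values at this locus, those of mice 12, 13 and 14, also had the fewest genes detected (9017 to 9749 in Ly6C hi and 5343 to 10379 in Ly6C lo). The sum over the 6 of 8 immediate early genes with a row was lowest in the same mice, at 26837 to 36346 in Ly6C hi and 15029 to 31479 in Ly6C lo of these mice. Fos and Zfp36 made up most of that sum, and other members followed it only in part. Egr1 in Ly6C hi was at 0 in mice 12, 13 and 14, and also in Ac-6-FP mouse 18. Ier2 in Ly6C lo was lowest in mice 13 and 14 (392 and 617). Against this order, Dusp1 in Ly6C hi was highest in mouse 13 (3597) and Egr1 in Ly6C lo was highest in mouse 12 (903). Over whole groups the sum was 26837 to 82216 with vehicle and 68619 to 88160 with Ac-6-FP in Ly6C hi. In Ly6C lo it was 15029 to 107600.4 and 60179 to 108715. Their part in the difference at the locus was not tested.

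**Figure D5:**
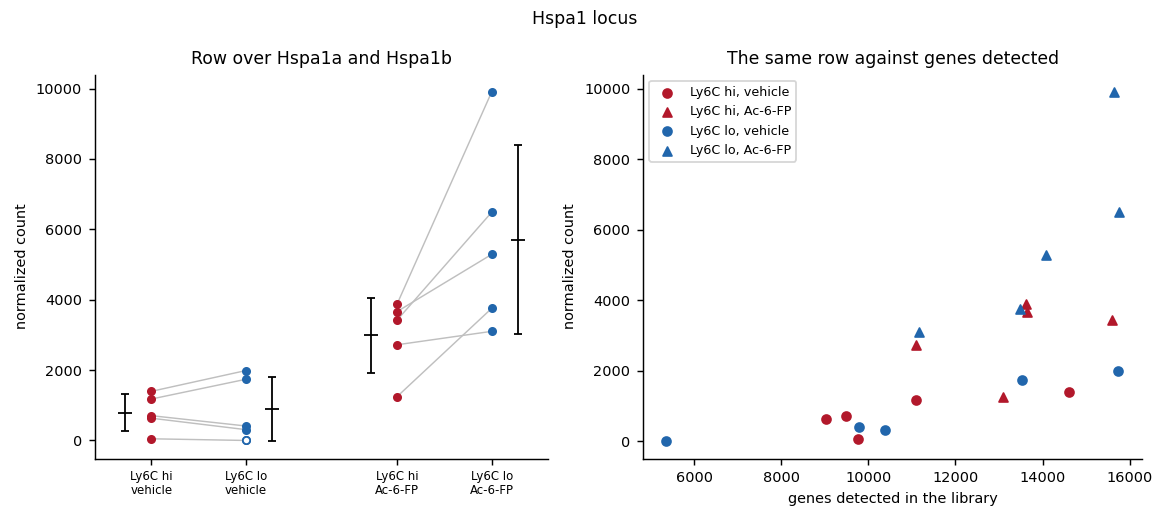
Normalized count (y axes, linear) of the row over Hspa1a and Hspa1b, by group with the libraries of a mouse joined and mean ± SD of 5 mice in black (left), and against the number of genes detected in each library (right; circles vehicle, triangles Ac-6-FP). The 5 Ac-6-FP values in Ly6C lo (3101 to 9903) lie above the 5 vehicle values (0 to 1987), and the libraries with few genes detected are low.

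As a description of how the 9 genes varied among themselves, Pearson's r of log2 values was taken over the 20 libraries after the mean of each group was removed. The libraries share size factors and, in pairs, a mouse. The median over 36 pairs of the 9 genes was 0.205, against 0.089 over all pairs of tested genes, and 26 of the 36 were above 0. Without mouse 13 the median was 0.123, against 0.05 for all pairs. The pair of HSP70 genes Hspa5 and Hspa8 had r = 0.656, and 0.714 without mouse 13, the highest of the 36 then. Pdia4 and Calr had the highest r with all libraries, 0.844, and r = -0.097 without mouse 13. Atf4 and Xbp1 had the lowest, -0.556, and -0.39 without mouse 13, when Hsp90aa1 and Hspa5 had the lowest, -0.472.

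The genes outside the group whose pattern was most like that of Hspa5 by the same measure were a row without a symbol (GSMG0069292, r = 0.866), Kdm4a (0.849), Tmod3 (0.848), Wdr4 (0.844) and Phgdh (0.841), over 20 libraries. Without mouse 13, Mgmt (0.871) and Vps35 (0.862) took the places of Wdr4 and Phgdh among the 5.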

How the data were processed

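RNA was sequenced from sorted Ly6C hi and Ly6C lo MoMac of 5 vehicle and 5 Ac-6-FP mice, with a low-input kit and single libraries per subset and mouse. The authors aligned reads to mm10 with STAR 2.4.0, counted them over constitutive regions of the FAST DB annotation and deposited a signal, the gene count divided by a DESeq2 size factor. Whether counting used strand is not given in the sources used here. Whole reads were recovered from the steps of the values: 100% of the values under 100 reads lay within 0.1 read of a whole number. Recovered totals were 5693049 to 18682437 reads per library, and 0 allows up to 3 reads, for counting error only. The table had 0 columns of other samples.

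Genes with a mean of at least 10 in any group were tested with limma 3.58.1 (R 4.3.3) on log2(normalized count + 1), with a trend in the variance prior, and p-values were adjusted by Benjamini-Hochberg over all genes tested. Subsets were compared as within-mouse differences, because the labels give both subsets the same number, which was read as 1 liver. The study also used a paired test between subsets. The residual correlation of the libraries of a mouse had a median of 0.0339 (0.00334 to 0.25). The correlation with the library of the same number was the highest for mice 11, 13 and 18 only. Ac-6-FP was compared within a subset, and the difference of its change between subsets on within-mouse differences. The study instead tested ratios to the vehicle mean. P-values set a mean difference against the spread between mice, which for the subset comparisons is the spread of the within-mouse differences. Single genes were also tested by exact permutation of the mice, two-sided and unadjusted, in Python 3.11.15 (numpy 2.4.6). Intervals are 95% confidence intervals.

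All 10 genes of the group were named. Of the other lists, called genes were named, at most 4 a list in a comparison by the size of the change, beside the sensor and factor genes Ern1, Eif2ak3, Atf6 and Hsf1. Dnajb1, Stip1, Chac1, Hspb1 and the immediate early genes were named after their values were seen. The genes, lists, markers and tests were chosen with earlier results of these data known. Other settings were an added count of 0.1 or 10, a minimum mean of 100 or none, quantile normalization, a covariate for genes detected, no block for the mouse, each mouse left out, and edgeR 4.0.16 on recovered reads. For edgeR mouse 15 was left out, because 1 read of its Ly6C hi library is worth 0.989, too close to 1 for the check of whole reads. Promoter sequences are from RefSeq, GRCm38.p6.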

Additional observations from a re-analysis of the deposited data

Results flagged for a closer look

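Of 44 groups of 5 values, 2 held a value far from the other 4, by Dixon's test at the 95% level, and chance flags about 1 in 20 groups. Pdia4 in vehicle Ly6C hi MoMac of mouse 14 was at a normalized count of 3744.1, against 1606.3 to 2068.4 in the other 4 mice. Hsp90aa1 in vehicle Ly6C lo MoMac of mouse 14 was at 2839.7, against 1274.9 to 1727.8, and without mouse 14 the gene was still called as higher in Ly6C lo MoMac.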

How the results depend on the processing

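The comparison of the subsets called 2 of the 9 genes. It called 1 with no filter on low values, 1 with no replicate block for the mouse, 0 with edgeR, and 0 to 2 when a mouse was left out. In Ac-6-FP mice alone, where 0 genes were called, a minimum group mean of 100 gave 1. With genes detected as a covariate the subsets had 3 called genes, with Pdia4 beside the other 2. The covariate fit kept mouse 13, whose Ly6C lo library was at 0 for Pdia4, and was not run without that mouse. Of 96 counts of called genes under an alternative, 83 equalled the one reported, 11 were lower and 2 higher. For single genes, 605 of 677 alternative values kept their direction and side of the threshold. Another 43 kept the direction and lost the call, 1 kept the direction and gained a call, and 28 turned sign. The block changed no other call of the 9 genes. Differences that turned sign were all uncalled, and the cause was not tested. With a pseudocount of 10, the subset difference of the row inside Hspa1a was -0.0921 and of the row over Hspa1a and Hspa1b -0.13, and the Ac-6-FP difference of Ddit3 in Ly6C lo -0.0167. With quantile normalization, the subset difference of Hspa8 was 0.11, and the Ac-6-FP difference was 0.0497 for Hspa8 in Ly6C hi, -0.0682 for Xbp1 and -1.47 for Ddit3 in Ly6C lo. With genes detected as a covariate, the Ac-6-FP difference in Ly6C lo was -0.0028 for Hspa5 and -0.92 for Ddit3. With edgeR, the subset difference was 0.0014 for Hspa5 and -0.0212 for the row over Hspa1a and Hspa1b, and the Ac-6-FP difference of Pdia4 in Ly6C hi was -0.0195. When a mouse was left out, the subset difference ranged from -0.0522 to 0.30 for Calr, -1.04 to 0.23 for Atf4, -0.41 to 0.45 for the row inside Hspa1a and -0.43 to 0.37 for the row over both. The Ac-6-FP difference in Ly6C hi then ranged from -0.14 to 0.13 for Hspa5, -0.0211 to 0.29 for Pdia4, -0.0798 to 0.0278 for Hspa8 and -1.66 to 0.049 for Ddit3. In Ly6C lo it ranged from -0.15 to 0.46 for Xbp1 and -0.63 to 1.07 for Ddit3. Depth limits Ddit3, whose reads were 0 to 116 per library.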

Other observations

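The 6 mitochondrial chaperone and protease genes, which answer protein stress in that organelle, had a median subset difference of 0.77, 4 of them above 0 and 2 below, and none was called. Without mouse 13, whose Ly6C lo library had few genes, the median was -0.08, with 2 above 0 and 4 below. Their median difference for Ac-6-FP was 0.14 in the Ly6C hi subset and 1.41 in the Ly6C lo one, where 6 of 6 were above 0, beside 0.91 over all genes, and none was called there either. Without mouse 13 that median was 0.48, with 5 above 0 and 1 below, beside 0.34 over all genes. Of the genes listed for the stress responses, Chac1, a target of CHOP, and the small heat shock gene Hspb1 were at 0 in all 20 libraries.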
